A study of Mus musculus with 10 samples.

Results

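The comparison described here sets 3 cultures heterozygous for the E147A mutation of Smchd1 against 3 wild-type cultures, all male, on the autosomes (chromosomes 1 to 19). They are 6 of the 10 libraries of the series, chosen as those with a total count per gene and no counts split by allele. Each library is poly(A) RNA of a neural stem cell culture, grown as an adherent monolayer on laminin with EGF and FGF (20 ng/mL each) from the cortices of 1 mouse embryo at embryonic day 14.5. The mutant genotype was Smchd1GFP-E147A/+ and the control Smchd1+/+, both XY. Only the mutant allele carries the GFP tag, so tag and mutation cannot be told apart. The labels give all embryos a Castaneus (Cast) father and a 129/C57 F1 mother. The E147A/+ cultures (replicates 1, 2 and 3) came from litters 1, 1 and 3, and the +/+ cultures (replicates 1, 2 and 3) from litters 4, 1 and 3. Values below follow that order, so each genotype was measured together in litters 1 and 3 only, and litter 4 holds 1 +/+ culture.

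SMCHD1 is a non-canonical member of the SMC protein family, which shapes chromosomes, and carries an ATPase domain of the GHKL type near its start. It is known for keeping the inactive X chromosome silent and, on autosomes, for repressing clustered protocadherin genes and some imprinted clusters. E147A replaces a glutamate of that ATPase domain with alanine. Clustered protocadherins are cell surface adhesion proteins that neurons choose in combinations from 3 neighbouring gene arrays, alpha, beta and gamma.

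The deposited table held 52632 genes. Total counts per library were 28664345 to 37122947 in E147A/+ and 20648916 to 30372514 in +/+. Of the 17110 genes with enough counts to test, 16369 were autosomal. Levels are given as CPM (counts scaled to the same library total, and between libraries by TMM), and differences as log2 fold changes of E147A/+ over +/+. Libraries of litter 1 resembled each other most, with Pearson's r of 0.981 to 0.985 across genes against 0.931 for the 2 libraries of litter 3 and 0.934 to 0.968 between litters. No 2 libraries agreed within sampling noise (chi-square per gene 18.2 to 207.3). The first principal component (38.8% of the variance) set the +/+ culture of litter 3 apart, and the second (32.5%) set the E147A/+ culture of litter 3 apart. Within litter 3, 22.5% of the 13363 autosomal genes with a mean of at least 1 CPM differed by more than 1 on the log2 scale, against 2.4% within litter 1. Each litter-3 difference rests on 1 culture against 1. The p-values rest on a spread estimated within groups over all 10 libraries of the series, 4 of them female. The 6 male cultures each came from their own embryo, and some share a litter.

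The strain of the autosomes did not follow the labels where it could be read. Allelic counts were given for the 4 female libraries of the series, which share the estimate of the spread here. Their median Cast share was under 5% on 7 to 11 of 19 autosomes and reached 49.8% to 50% on others. Over the whole of chromosome 17, where Smchd1 lies, the female E147A/+ libraries had 1.29% and 0.336%, and the female +/+ libraries 48.9% and 49.6%. The alleles of the male cultures were not analysed here, so their strain is unknown on every autosome. On chromosome 17, which holds Rab26 and the parent genes of both retrocopies below, strain and genotype cannot be told apart. On chromosome 18, which holds the clustered protocadherins, the Cast share differed within each genotype. E147A/+ females had 0.952% against 49.5%, while +/+ females had 47.4% against 1.07%. Whether strain contributes to differences outside chromosome 17 was not tested.

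The cultures expressed the genes of neural stem cells in every library. Sox2, a transcription factor of neural progenitors, was at 206, 204 and 178 CPM in E147A/+ and 191, 238 and 195 CPM in +/+. Nes, an intermediate filament of these cells, was at 546 CPM or more in all 6 libraries. Hox genes, which mark hindbrain and spinal cord rather than cortex, were absent or nearly so: 31 of 39 had no count in any male library and none had enough counts to test. Of 15 markers of microglia and macrophages, 1 (Trem2) had no count in any of the 6 libraries and Csf1r was at most at 0.103 CPM. Others were present: P2ry12 reached 2.77 CPM in the litter-3 culture of +/+. Summed over the list the level was 30.4, 24.5 and 49.4 CPM in E147A/+ and 41.5, 37.7 and 21.8 CPM in +/+.

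Smchd1 itself (ENSMUSG00000024054, chr17:71344489-71475343, GRCm38) was at 121 and 128 CPM in litter 1 and 94.2 CPM in litter 3 in E147A/+. In +/+ it was at 122 CPM in litter 4, 151 CPM in litter 1 and 192 CPM in litter 3. The groups overlapped, as 1 litter-1 culture of E147A/+ was above the litter-4 culture of +/+, and within litters 1 and 3 E147A/+ was the lower. The log2 fold change of -0.44 (SE 0.20) did not pass the quasi-likelihood test of edgeR (adjusted p 1). Alternatives gave -0.60 to -0.26, none past the threshold. Gene counts do not show the mutated base.

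By the same test at an adjusted p of 0.05, 4 of the 16369 autosomal genes differed (0.0244%). Rab26, a small GTPase of secretory vesicles, and Pcdha3, an alpha protocadherin, rose in E147A/+ (0.0122% of genes). Rps18-ps6 and Rpl36-ps3, retrocopies of ribosomal protein genes, fell (0.0122%). At an unadjusted p under 0.05, called a low p below, the count was 561 genes (3.43%), of which 270 were higher (1.65%) and 291 lower (1.78%) in E147A/+. The 3 libraries of one genotype lay beyond the 3 of the other for 1167 genes (7.13%), 524 with E147A/+ higher (3.2%) and 643 with it lower (3.93%). By sign alone 7773 genes were higher (47.5%) and 8595 lower (52.5%), and the median log2 fold change was -0.02.

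**Figure D1:**
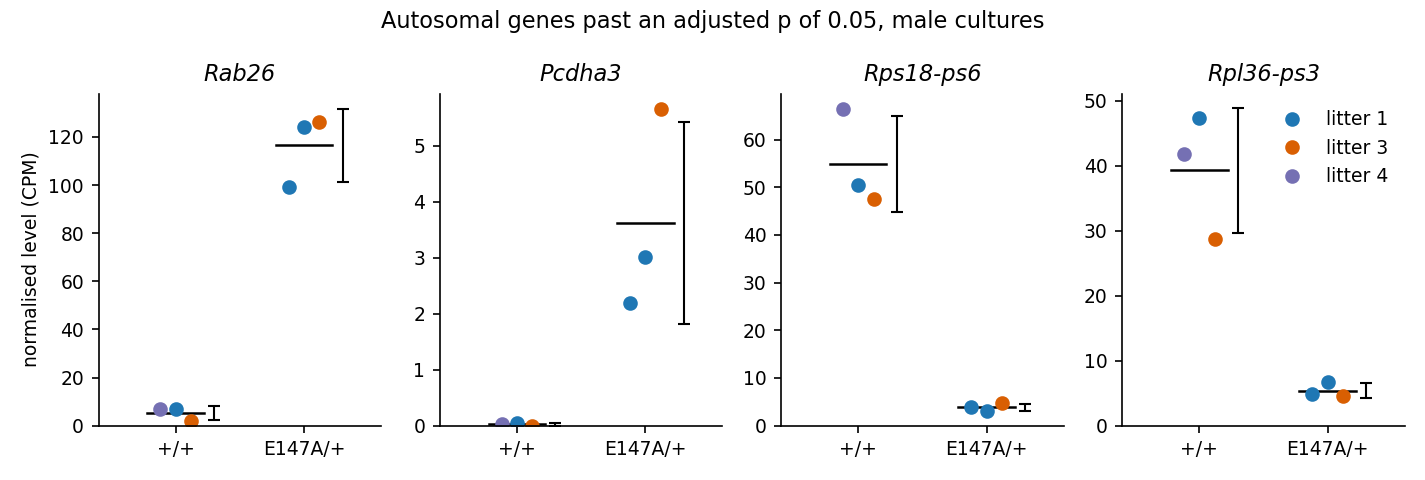
Normalised level (CPM, each axis from 0) in the 3 +/+ and 3 E147A/+ male cultures for the 4 autosomal genes past an adjusted p of 0.05, coloured by litter. Bars are group means with SD (n = 3). The groups do not overlap for any of the 4 genes, in litter 1 or in litter 3.

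Rab26 (ENSMUSG00000079657, chr17:24527241-24534210, minus strand) was at 99.0 and 124 CPM in litter 1 and 126 CPM in litter 3 in E147A/+. In +/+ it was at 6.93 CPM in litter 4, 6.76 CPM in litter 1 and 1.92 CPM in litter 3. Every E147A/+ culture was far above every +/+ culture, and the means were 116 ± 15.1 and 5.21 ± 2.84 CPM (SD, n = 3 each). The log2 fold change was 4.49 (SE 0.42) and the level 22.4-fold higher (edgeR, adjusted p 0.0061). Rab26 shares its strand with the overlapping gene Traf7, a ubiquitin ligase, which was at 194 CPM in each E147A/+ culture and 123, 160 and 193 CPM in +/+. Rab26os, annotated on the opposite strand, was at 9.32, 13 and 2.06 CPM against 3.14, 13 and 12 CPM, with overlapping groups. Traf7 was higher in each E147A/+ culture than in any +/+ culture, by little in litter 3, at a log2 fold change of 0.29 (SE 0.19). Snord60, also on the opposite strand, did not have enough counts to test. Whether reads of overlapping genes contribute to the Rab26 counts was not tested. The call was lost without the E147A/+ culture of litter 3, with the replicate block, with the 6 male libraries alone (adjusted p 0.0927) and with litter as a covariate (0.113 over 10 libraries and 0.652 over 6). The fold change kept its sign and lay between 4.09 and 4.82 under all alternatives.

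Rab26 was the only member of the Rab GTPase and exocytosis list to pass the test. The list of 100 had 46 members higher and 54 lower, with a median log2 fold change of -0.03. Of the 100, 3 were higher at an unadjusted p under 0.05, Rab26 among them, and 1 lower, against 3.43% of all autosomal genes. Syt4 and Rims3, both parts of the vesicle release machinery, had log2 fold changes of 1.45 and 0.67. That of Rims3 was 0.39 without the litter-3 culture of +/+. Within litters 1 and 3 Syt4 differed by 0.18 and 2.89, and Rims3 by 0.33 and 1.55. Rab44 had a log2 fold change of -2.20 at under 0.41 CPM in all 6 cultures. It lies on chromosome 17, like Rab26, under the limit of strain given above.

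Rps18-ps6 (ENSMUSG00000069117, chr13:97760072-97760632, minus strand) is a copy of Rps18, a protein of the small ribosomal subunit, that GENCODE lists as a protein-coding gene without introns in its coding part. It was at 3.83 and 3.05 CPM in litter 1 and 4.65 CPM in litter 3 in E147A/+, against 66.5 CPM in litter 4, 50.5 CPM in litter 1 and 47.6 CPM in litter 3 in +/+. The groups were far apart, at 3.84 ± 0.803 and 54.9 ± 10.2 CPM (SD, n = 3 each). The log2 fold change was -3.83 (SE 0.26) and the level 14.3-fold lower (edgeR, adjusted p 0.000948). Rps18-ps6 overlaps Rps18-ps4 on the opposite strand, and whether reads of Rps18-ps4 contribute to its counts was not tested. Across fits of the same counts, the call of Rps18-ps6 was the most stable of the 4. It held without each male library in turn and in 15 of 16 alternatives, and missed the threshold at an adjusted p of 0.0652 with litter as a covariate over the 6 male libraries.

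Rpl36-ps3 (ENSMUSG00000066629, chr12:12912022-12912336, plus strand) is a processed pseudogene of Rpl36, a protein of the large ribosomal subunit. In E147A/+ it was at 4.82 and 6.73 CPM in litter 1 and 4.62 CPM in litter 3. In +/+ it was at 41.8 CPM in litter 4, 47.4 CPM in litter 1 and 28.7 CPM in litter 3, again with a wide gap between the groups. The log2 fold change was -2.86 (SE 0.26) and the level 7.28-fold lower (edgeR, adjusted p 0.0061). The call was lost without replicate 1 or replicate 3 of E147A/+, with the replicate block, with the 6 male libraries alone (adjusted p 0.0899) and with litter as a covariate (0.0624 over 10 libraries and 0.233 over 6). Rpl36-ps3 overlaps Gm40271 on the same strand, and whether reads of Gm40271 contribute to its counts was not tested.

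Both parent genes lie on chromosome 17, where strain and genotype cannot be told apart. Rps18 (chr17:33951999-33956001) had a log2 fold change of 0.11 (SE 0.24) and Rpl36 (chr17:56613416-56614243) of 0.16 (SE 0.18), neither past the threshold (edgeR, adjusted p 1). The 4 stretches of coding sequence below, from GENCODE M21 on GRCm38, hold every base that separates each copy from its parent, and 20 bases on either side. They run from base 166 to 451 in the Rps18 pair and from base 34 to 247 in the Rpl36 pair, counted from the start codon, and are written 5′ to 3′ on the gene's own strand, and capitals mark the bases that differ within a pair.
Rps18: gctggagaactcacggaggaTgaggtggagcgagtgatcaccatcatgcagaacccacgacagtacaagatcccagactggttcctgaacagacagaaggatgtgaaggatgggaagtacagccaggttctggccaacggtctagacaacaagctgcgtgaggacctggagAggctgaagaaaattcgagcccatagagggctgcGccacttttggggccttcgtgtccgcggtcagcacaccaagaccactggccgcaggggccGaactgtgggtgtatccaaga
Rps18-ps6: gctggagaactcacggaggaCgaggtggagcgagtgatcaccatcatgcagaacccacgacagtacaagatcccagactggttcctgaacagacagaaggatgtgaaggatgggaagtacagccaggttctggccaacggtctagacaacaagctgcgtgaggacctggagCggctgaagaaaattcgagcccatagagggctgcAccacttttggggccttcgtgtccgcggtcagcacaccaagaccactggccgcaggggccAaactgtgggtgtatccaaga
Rpl36: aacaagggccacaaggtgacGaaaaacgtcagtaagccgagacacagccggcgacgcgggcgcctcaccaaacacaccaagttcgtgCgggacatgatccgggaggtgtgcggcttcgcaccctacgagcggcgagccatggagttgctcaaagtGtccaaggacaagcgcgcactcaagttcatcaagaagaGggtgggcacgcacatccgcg
Rpl36-ps3: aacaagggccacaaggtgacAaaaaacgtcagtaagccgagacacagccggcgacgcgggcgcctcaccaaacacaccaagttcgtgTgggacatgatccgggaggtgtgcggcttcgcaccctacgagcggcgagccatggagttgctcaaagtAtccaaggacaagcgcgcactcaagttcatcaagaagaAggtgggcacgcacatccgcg
Counted from the first base of the start codon, with the parent's base first, Rps18-ps6 differs from Rps18 by T186C, A337C, G371A and G431A (99.1% identity over 456 bases). Rpl36-ps3 differs from Rpl36 by G54A, C121T, G189A and G227A (98.7% over 315 bases). Reads were 80 bases long, and 177 of the 377 stretches of 80 bases in the Rps18 pair (46.9%) and 9 of 236 in the Rpl36 pair (3.80%) are identical in parent and copy. Reads that lie within such identical stretches could be placed at either gene, so counts of parent and copy are uncertain. The shares do not measure that uncertainty, since they take single reads while the reads were paired. They also leave out strain variants and other copies, such as Rps18-ps1 and Rpl36-ps2. The comparison covers coding sequence only, and how reads were placed was not tested.

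As a share of the counts at both genes, Rps18-ps6 held 0.317% and 0.287% in litter 1 and 0.324% in litter 3 in E147A/+. In +/+ it held 4.33% in litter 4, 4.84% in litter 1 and 4.67% in litter 3. Rpl36-ps3 held 1.39%, 1.76% and 1.17% in E147A/+ and 10.2%, 11.5% and 10.1% in +/+. Both shares were narrow within each genotype, in every litter, and did not overlap between genotypes.

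The wider list of ribosomal protein pseudogenes had 130 tested members, 81 higher and 49 lower, with a median log2 fold change of 0.12 that was -0.04 without the litter-3 culture of +/+. Split by the chromosome of the parent gene, a split chosen after the values were seen, 6 of 15 with a parent on chromosome 17 (40.0%) had an unadjusted p under 0.05, against 6 of 115 with a parent elsewhere (5.22%). In the first set Rps2-ps5, Rpl10a-ps1, Rps10-ps2 and Rps18-ps1 were higher at a low p, and only Rps18-ps6 and Rpl36-ps3 lower. Rps18-ps6 and Rpl36-ps3, already known as calls when the split was chosen, are counted in the 6 of 15. The 40.0% therefore partly restates those calls. The 15 have only 5 parent genes, against 42 for the 115 with a parent elsewhere. Rps18-ps1 shares its parent with Rps18-ps6. Rps2-ps5 was at 25.1, 16.1 and 39.4 CPM in E147A/+ against 14.9, 6.95 and 12.1 CPM in +/+ (log2 fold change 1.24, SE 0.38). The cytosolic ribosomal protein genes themselves had 56 of 80 members higher and none at an unadjusted p under 0.05, with a median of 0.08 that was -0.01 without the same culture.

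**Figure D2:**
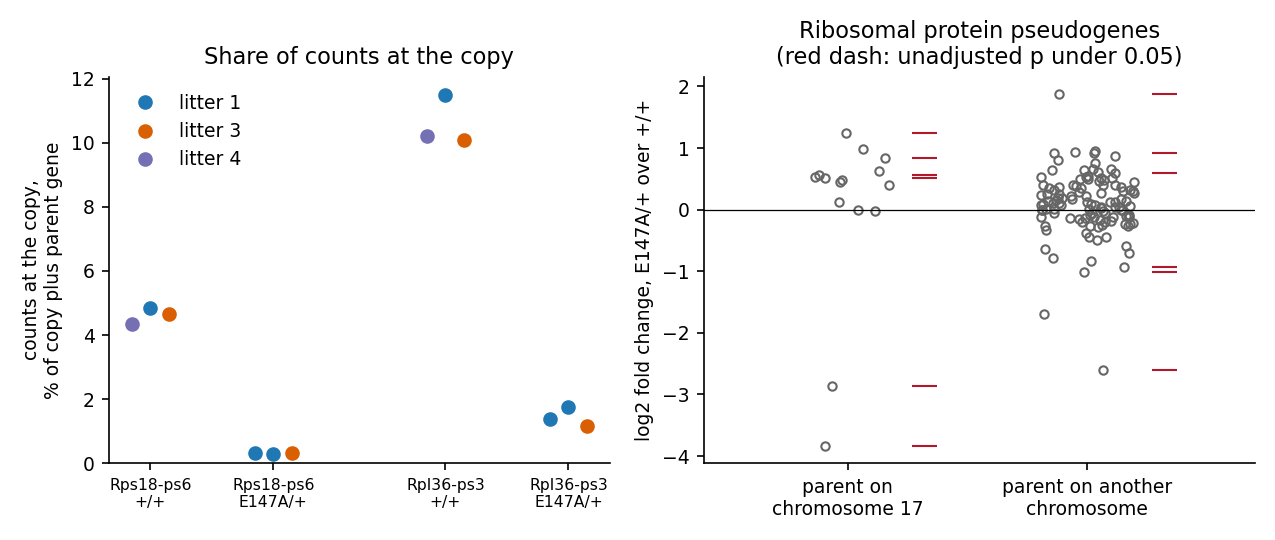
Left, the share of counts at each copy (% of copy plus parent) in the 3 +/+ and 3 E147A/+ male cultures, coloured by litter: 4.33 to 4.84% against 0.287 to 0.324% for Rps18-ps6 and 10.1 to 11.5% against 1.17 to 1.76% for Rpl36-ps3. Right, log2 fold changes of 15 ribosomal protein pseudogenes with a parent on chromosome 17 and 115 with a parent elsewhere. Red dashes mark the 6 in each set with an unadjusted p under 0.05. Those of the first set include Rps18-ps6 and Rpl36-ps3.

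The clustered protocadherins on chromosome 18 held the fourth call and many of the next lowest p-values. Pcdha3 (ENSMUSG00000102312, chr18:36946105-37187657) was at 2.20 and 3.01 CPM in litter 1 and 5.65 CPM in litter 3 in E147A/+. In +/+ it was at 0.0345 CPM in litter 4 and 0.0469 CPM in litter 1, and had no count in litter 3. The sums were 342 counts against 2, a ratio of 141 after scaling for depth, with a 95% interval of 38.6 to 1160 that covers counting error only. It passed the test (edgeR, adjusted p 0.033). The call was lost without each of the 6 male libraries in turn and held in 3 of the 14 alternatives that kept it after the filter on low counts. It was also lost with the 6 male libraries alone (edgeR, adjusted p 0.17) and with litter as a covariate (0.297 over 10 libraries and 0.652 over 6). Alpha protocadherin genes overlap each other, since their first exons join shared last exons, and how shared reads were assigned is not given in the sources used here.

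Of the 14 alpha protocadherins 12 were higher and 2 lower in E147A/+. At an unadjusted p under 0.05, 9 of the 14 were higher and none lower, against 1.65% of all autosomal genes higher at that p. The median log2 fold change of the alpha list was 3.85, or 3.35 with 3 genes at the bound that their +/+ counts allow. It was 0.13 with at least 10 counts in every male library, a filter that only 2 members passed. Pcdha2 was at 4.10, 4.59 and 5.35 CPM against 0.138, 0.376 and 0.0337 CPM, and Pcdha5 at 1.42, 3.01 and 3.06 CPM against 0.207, 0.235 and 0.202 CPM. Pcdha1 had 131 counts over E147A/+ and 0 over +/+, at least 35.9-fold higher with the +/+ sum set to 3 counts. The C-type members Pcdhac1 and Pcdhac2, at the end of the array, had log2 fold changes of -0.19 and -0.36. All levels in +/+ other than Pcdhac2 were under 1 CPM, so genes of this list passed the filter on low counts mainly through the E147A/+ cultures.

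The beta protocadherins were higher in E147A/+ in each of the 21 members tested of 22, at a median log2 fold change of 1.28. None passed the adjusted threshold, while 19 had an unadjusted p under 0.05 and 16 had no overlap between the genotypes. Over all autosomal genes 1.65% were higher at that p and 3.2% were higher without overlap. The summed level of the beta protocadherins was 181 and 162 CPM in litter 1 and 171 CPM in litter 3 in E147A/+, and 70.6 CPM in litter 4, 43.9 CPM in litter 1 and 86.4 CPM in litter 3 in +/+. Pcdhb11 was at 16.0, 12.9 and 12.2 CPM against 3.38, 1.27 and 2.19 CPM (log2 fold change 2.58, SE 0.37, edgeR adjusted p 0.111). Pcdhb12 was at 2.92, 3.85 and 4.22 CPM against 0.759, 0.563 and 0.607 CPM, with no overlap in any litter. The same direction was seen in Pcdhb3, Pcdhb2 and Pcdhb18, with log2 fold changes of 2.00, 2.00 and 1.47. The 19 with an unadjusted p under 0.05 stayed higher without each male library in turn, and the list median was 1.02 to 1.57. The log2 fold change of Pcdhb6 went from 1.245 to 0.6225 without the litter-3 culture of E147A/+.

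The gamma protocadherins did not move as a block, with 8 of 22 higher and 14 lower and a median of -0.13. The lowest p belonged to Pcdhgb6, at 4.50, 2.88 and 3.46 CPM in E147A/+ and 8.31, 9.30 and 8.71 CPM in +/+ (log2 fold change -1.28, SE 0.28, edgeR adjusted p 0.561). Of the 9 non-clustered protocadherins, which lie outside these arrays, 8 were lower, with a median of -0.16 that was -0.18 within litter 1 and 0.03 within litter 3. It ranged from -0.46 to -0.04 without each male library in turn, and that of the gamma list from -0.19 to -0.02. Pcdh9 had the lowest p among them, at a log2 fold change of -0.87.

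**Figure D3:**
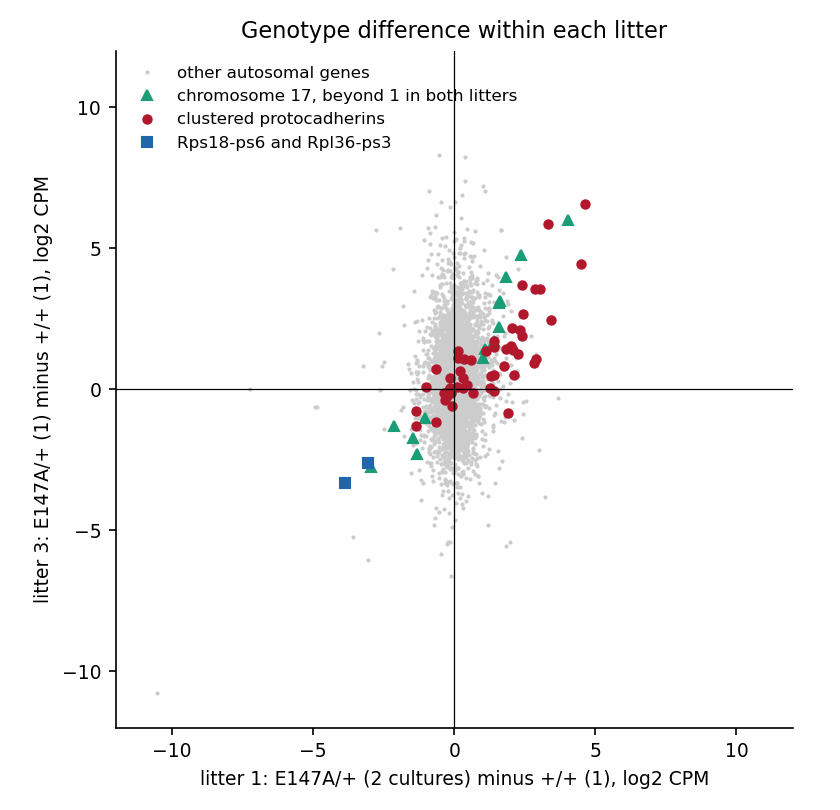
Difference E147A/+ minus +/+ in log2 CPM within litter 1 (x, 2 cultures against 1) and within litter 3 (y, 1 against 1) for autosomal genes with a mean of at least 1 CPM. The cloud is much taller than wide. Clustered protocadherins (red), chromosome 17 genes beyond 1 in both litters (green) and the 2 retrocopies (blue) are marked, and the places of the green and blue points follow from how they were chosen.

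The 2 litters that hold both genotypes comprise 5 of the 6 libraries, without the litter-4 culture of +/+. Of 13363 genes, 111 were higher by more than 1 on the log2 scale in both litters and 38 lower in both, while 25 were higher in litter 1 and lower in litter 3, and 21 the reverse. Of the 111, 19 were clustered protocadherins. Chromosome 18, where they lie, held 384 of the 13363 genes and 20 of the 111. Alpha members such as Pcdha3 reached the mean of 1 CPM needed here only through the E147A/+ cultures. The signs were the same in 56.8% of genes, and the correlation of the litter differences across genes, which are not independent replicates, was 0.182 (Pearson) and 0.174 (Spearman). Rab26 differed by 4.02 in litter 1 and 5.99 in litter 3. The beta protocadherins had medians of 2.05 in litter 1 and 1.36 in litter 3, and the alpha protocadherins of 2.46 and 3.64.

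Chromosomes 17 and 18 held more low p-values than the rest. An unadjusted p under 0.05 was found for 52 of 779 tested genes on chromosome 17 (6.68%) and 51 of 467 on chromosome 18 (10.9%), against 3.03% over the other autosomes, which ranged from 2.25% to 5.43%. Without the clustered protocadherins the share on chromosome 18 was 5.12%. On chromosome 17 the share was highest in the first 10 Mb (9 of 44 genes, 20.5%), was 7.27% between 70 and 80 Mb, where Smchd1 lies, and was 0 of 29 genes between 60 and 70 Mb. Of the 50 autosomal genes with the lowest p, 16 were clustered protocadherins and 12 lay on chromosome 17, all 12 below 35 Mb. Of all 16369 autosomal genes tested, 779 lay on chromosome 17, and 14 were alpha, 21 beta and 22 gamma protocadherins.

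**Figure D4:**
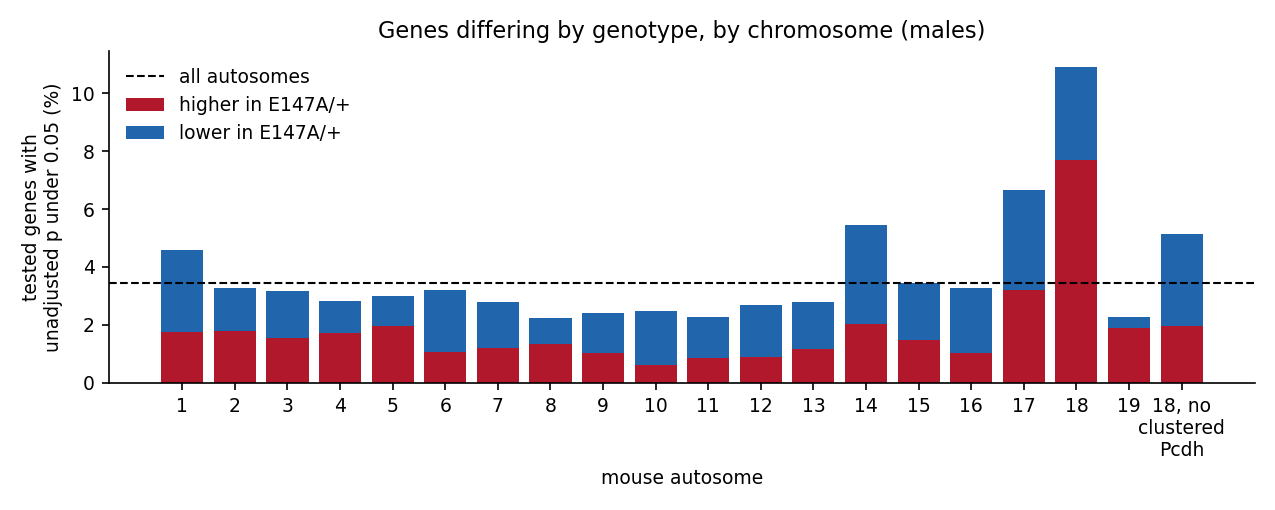
Share of tested genes with an unadjusted p under 0.05 (%, axis from 0) for each mouse autosome, split into genes higher (red) and lower (blue) in male E147A/+. The dashed line is the 3.43% over all autosomes, and chromosomes 17 (6.68%) and 18 (10.9%) stand above it.

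The first megabases of chromosome 17 hold small families of near-identical genes, and members of 1 family had values in opposite directions, none past the adjusted threshold and all under the same limit of strain. Dynlt1c, a light chain of the dynein motor (chr17:6601671-6609774), was at 4.58, 5.69 and 6.05 CPM in E147A/+ and 17, 14.3 and 20.3 CPM in +/+. The groups did not overlap in any litter, where lack of overlap was a condition for naming the gene (log2 fold change -1.66, SE 0.23, edgeR adjusted p 0.111). Its neighbour Dynlt1a was at 11.6, 10.7 and 12.2 CPM against 22.2, 22.4 and 24 CPM, while Dynlt1b and Dynlt1f had log2 fold changes of 0.36 and -0.05. Summed over the 4 genes the level was 0.768 times that of +/+, while the sums of the Tmem181 and Tagap families below were 1.63 and 1.47 times that of +/+.

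Tmem181a, a membrane protein gene that overlaps Dynlt1a on the other strand, was higher at 48.5, 50.9 and 46.4 CPM against 26.4, 31.1 and 23.1 CPM (log2 fold change 0.86, SE 0.16). Its pseudogene Tmem181c-ps was lower, at 0.67, 0.301 and 0.366 CPM against 0.621, 2.02 and 1.05 CPM, with overlapping groups (log2 fold change -1.44). Tagap, a GTPase-activating protein (chr17:7926000-7934897), was lower at 2.68, 2.31 and 2.89 CPM against 8.45, 11 and 7.15 CPM. Tagap1, its near copy, was higher at 30.5, 34.8 and 17.7 CPM against 11.2, 14.6 and 9.55 CPM. Reads of such copies could be split between them in counting, so single members are uncertain. Hsf2bp, a meiotic recombination gene further along (chr17:31944769-32036349), was at 0.482, 0.301 and 0.233 CPM in E147A/+ and 4.83, 3.33 and 1.92 CPM in +/+, with a log2 fold change of -3.29 (SE 0.49).

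Outside chromosomes 17 and 18 the retrocopies were the only genes past the adjusted threshold, and other genes had low p-values. Ucp2, a mitochondrial carrier protein on chromosome 7, was at 62.8, 58.2 and 67.9 CPM in E147A/+ and 39.0, 38.5 and 30.1 CPM in +/+ (log2 fold change 0.81, SE 0.16, edgeR adjusted p 0.399). Lower in E147A/+ were Tmem255b (log2 fold change -4.13), Omg, a myelin-associated glycoprotein (-2.70), and Prkcq, a protein kinase C (-2.52). Each had an edgeR adjusted p of 0.191 to 0.574, and no overlap between genotypes, which was a condition for naming these genes. Gm42047, a long non-coding RNA on chromosome 8, was at 0.0268, 0.234 and 0.0332 CPM in E147A/+ and 0.448, 235 and 161 CPM in +/+. Only the litter-1 and litter-3 cultures of +/+ had a high level, and the litter-4 culture of +/+ was close to E147A/+. It missed the threshold here (edgeR adjusted p 0.299) and passed it without the litter-4 culture (0.00013), with litter as a covariate (0.00117 over 10 libraries and 0.0252 over 6), with the replicate block (0.0331), without a filter (0.00628) and with DESeq2 (5.19e-08). It missed it in the other alternatives, at 0.297 to 1.

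Imprinted genes are expressed from 1 parental copy, and the Snrpn cluster on chromosome 7 is one of those known to need SMCHD1. There 3 of 7 tested genes were higher at an unadjusted p under 0.05, against 1.65% of all autosomal genes, and none passed the adjusted threshold. By sign 5 of the 7 were higher, with a median log2 fold change of 0.58. The median was 0.27 without the litter-4 culture of +/+, 0.39 without the litter-1 culture of +/+ and 0.69 and 0.41 within litters 1 and 3. Mkrn3, a ubiquitin ligase gene, was at 28.7 and 25.4 CPM in litter 1 and 23.3 CPM in litter 3 in E147A/+, and at 14.0 CPM in litter 4, 16.4 CPM in litter 1 and 13.7 CPM in litter 3 in +/+. The groups did not overlap (log2 fold change 0.81, SE 0.18, edgeR adjusted p 0.637). Ndn was at 163, 140 and 214 CPM against 101, 93.5 and 129 CPM, and Magel2 at 3.16, 3.18 and 3.03 CPM against 1.97, 1.08 and 1.11 CPM, also without overlap. Snrpn itself had a log2 fold change of -0.08. The 47 other imprinted genes tested had 20 higher and 27 lower and a median of -0.03, with Ddc (-1.84) and Sgce (-0.50) at an unadjusted p under 0.05. These were 2 of 47, against 3.43% of all autosomal genes.

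In 3 lists of chromatin genes, in the order below, 1 of 27, 1 of 34 and 0 of 14 members had a low p. Over all autosomal genes tested the share was 3.43%. The 27 genes of SMC complexes and the HUSH silencing complex had 6 higher and 21 lower, with a median of -0.10, and only Smchd1 had an unadjusted p under 0.05. Within litter 3 the median of this list was -0.56, against -0.07 within litter 1, and it ranged from -0.24 to -0.02 without each male library in turn. The Polycomb and heterochromatin list had 14 of 34 higher and a median of -0.03. The 14 genes of DNA methylation had a median of 0.05 and no member at an unadjusted p under 0.05. Within litter 3 the medians of these 2 lists were -0.31 and -0.26, and within litter 1 0.03 and 0.08. Leaving out 1 male library changed the sign of both, with ranges of -0.11 to 0.12 and -0.06 to 0.17. Of 33 genes of the 2-cell stage and germline, 8 had enough counts to test, 7 of them lower, with a median of -0.26 and Hsf2bp the only low p. That median ranged from -0.56 to -0.04 without each male library in turn.

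Genes of the unfolded protein and integrated stress response had a median of 0.31, with 20 of 25 higher. None passed the adjusted threshold and 6 had an unadjusted p under 0.05, all higher, against 1.65% of all autosomal genes higher at that p. Trib3, a pseudokinase induced by amino acid shortage, was at 5.6 and 18.5 CPM in litter 1 and 45.1 CPM in litter 3 in E147A/+, and at 9.10, 7.14 and 2.19 CPM in +/+. The groups overlapped, with the high value in the litter-3 culture of E147A/+ and the low one in the litter-3 culture of +/+. Slc7a5, an amino acid transporter, was at 452, 575 and 896 CPM against 379, 386 and 238 CPM. Without the litter-3 culture of E147A/+ the log2 fold change of Trib3 went from 1.91 to 0.97 and that of Slc7a5 from 0.94 to 0.62. Chac1, a glutathione-degrading enzyme, was at 9.48, 38.8 and 39.3 CPM against 11.1, 14.6 and 3.61 CPM, with Asns (1.02), Slc7a11 (0.97) and Mthfd2 (0.63) also higher at a low p. The log2 fold change of Slc7a11 was 0.32 without the litter-3 culture of E147A/+, and that of Mthfd2 was 0.38 without replicate 2 of E147A/+. The median of the list was 0.14 within litter 1 and 0.93 within litter 3.

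Glycolysis and hypoxia genes had 21 of 27 higher, a median of 0.23 and none at an unadjusted p under 0.05. That median was 0.10 within litter 1 and 1.1 within litter 3, and -0.21 without the litter-3 culture of +/+. Cholesterol synthesis had 14 of 22 higher (median 0.09), p53 targets 5 of 21 (-0.05) and respiratory chain subunits 30 of 74 (-0.02), with Cox6c (-0.52) and Atp5k (-0.46) at an unadjusted p under 0.05. Without the litter-3 culture of +/+ these were -0.31 and -0.24. Members at a low p were 2 of 74 in the respiratory chain list and 1 of 45 in the cell cycle list, against 3.43% of all autosomal genes. Cell cycle genes were lower in 39 of 45 members, with a median of -0.19 and Cenpf, a centromere protein, the only low p at 113, 115 and 82.4 CPM against 139, 134 and 180 CPM. The cell cycle median was -0.13 within litter 1 and -0.95 within litter 3, and 0.03 without the litter-3 culture of +/+.

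MHC class I and antigen processing genes had 15 of 26 higher and a median of 0.15. The median was 0.58 within litter 1 and 1.01 within litter 3, 0.93 without the litter-4 culture of +/+, and between -0.05 and 0.26 without each other male library. H2-Q1 was the only low p, at 0.0268, 0 and 0.166 CPM in E147A/+ and 1.83, 0.469 and 0.405 CPM in +/+. Members of this list such as H2-Q1, H2-K1, H2-M3 and Psmb9 lie on chromosome 17, where strain and genotype cannot be told apart. H2-K1, a classical class I gene, was at 136, 142 and 136 CPM against 148 CPM in litter 4, 65.9 CPM in litter 1 and 50.8 CPM in litter 3, so that the litter-4 culture of +/+ overlapped E147A/+. Interferon response genes had 15 of 33 higher (median -0.01), with Mx2 and Mx1 at an unadjusted p under 0.05 through 2 of the 3 E147A/+ cultures. Mx1 had 71 counts against 2, a ratio of 29.2 with a counting interval of 7.78 to 246.

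In signalling lists the medians were between -0.02 and 0.19. Within litter 3 they were 0.52 for Wnt, 0.33 for EGF and FGF response and 0.27 for Hedgehog, against -0.04 for all autosomal genes, and within litter 1 0.18, 0.13 and 0.10. In the Notch pathway 13 of 29 were higher (median -0.02), and 4 members were lower at an unadjusted p under 0.05, against 1.78% of all autosomal genes. Fabp7, a lipid-binding protein of radial glia, was at 967, 696 and 702 CPM against 1007, 1235 and 1972 CPM, with no overlap. The others were the Notch target repressors Hey1 (log2 fold change -0.70) and Hes5 (-1.60) and the ligand Dll3 (-1.16). Hes5 was at 8.12, 6.60 and 2.66 CPM in E147A/+ and 28.9, 20.6 and 3.44 CPM in +/+, low in both cultures of litter 3. Without the litter-4 culture of +/+ the log2 fold change of Hes5 was -1.05 and that of Dll3 -0.73. That of Fabp7 was -0.83 over all libraries and -0.51 without the litter-3 culture of +/+.

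EGF and FGF receptor response genes had 20 of 33 higher (median 0.08). Spry4, a feedback inhibitor of this signalling, was at 447, 455 and 637 CPM against 381, 315 and 408 CPM, without overlap (log2 fold change 0.48, and 0.29 without the litter-3 culture of E147A/+), and Erbb4 had a log2 fold change of -1.14. Fos, an immediate early gene, had a log2 fold change of -3.27 that came from 395 CPM in the litter-4 culture of +/+ alone, and of 0.19 without it. The BMP and Id list had 13 of 24 higher (median 0.03, Bmpr1b -0.74), Wnt 24 of 34 (0.19, Sp5 1.59 and Wnt5a -0.73) and Hedgehog 8 of 12 (0.07). Without each male library in turn these medians ranged from -0.25 to 0.03, from 0.09 to 0.35 and from 0.04 to 0.19. That of the extracellular matrix list below ranged from -0.26 to 0.29. The extracellular matrix list had 23 of 49 higher (-0.02), with Col5a1 (0.81) and Nid1 (1.38) higher and Tnr (-1.71) and Col5a2 (-0.64, and -0.40 without the litter-3 culture of +/+) lower at an unadjusted p under 0.05. At a low p, 1 of 33 EGF and FGF members was higher and 2 lower. In the BMP and Id list 1 of 24 was lower, and in the Wnt list 1 of 34 was higher and 1 lower. Over all autosomal genes 1.65% were higher and 1.78% lower at a low p.

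**Figure D5:**
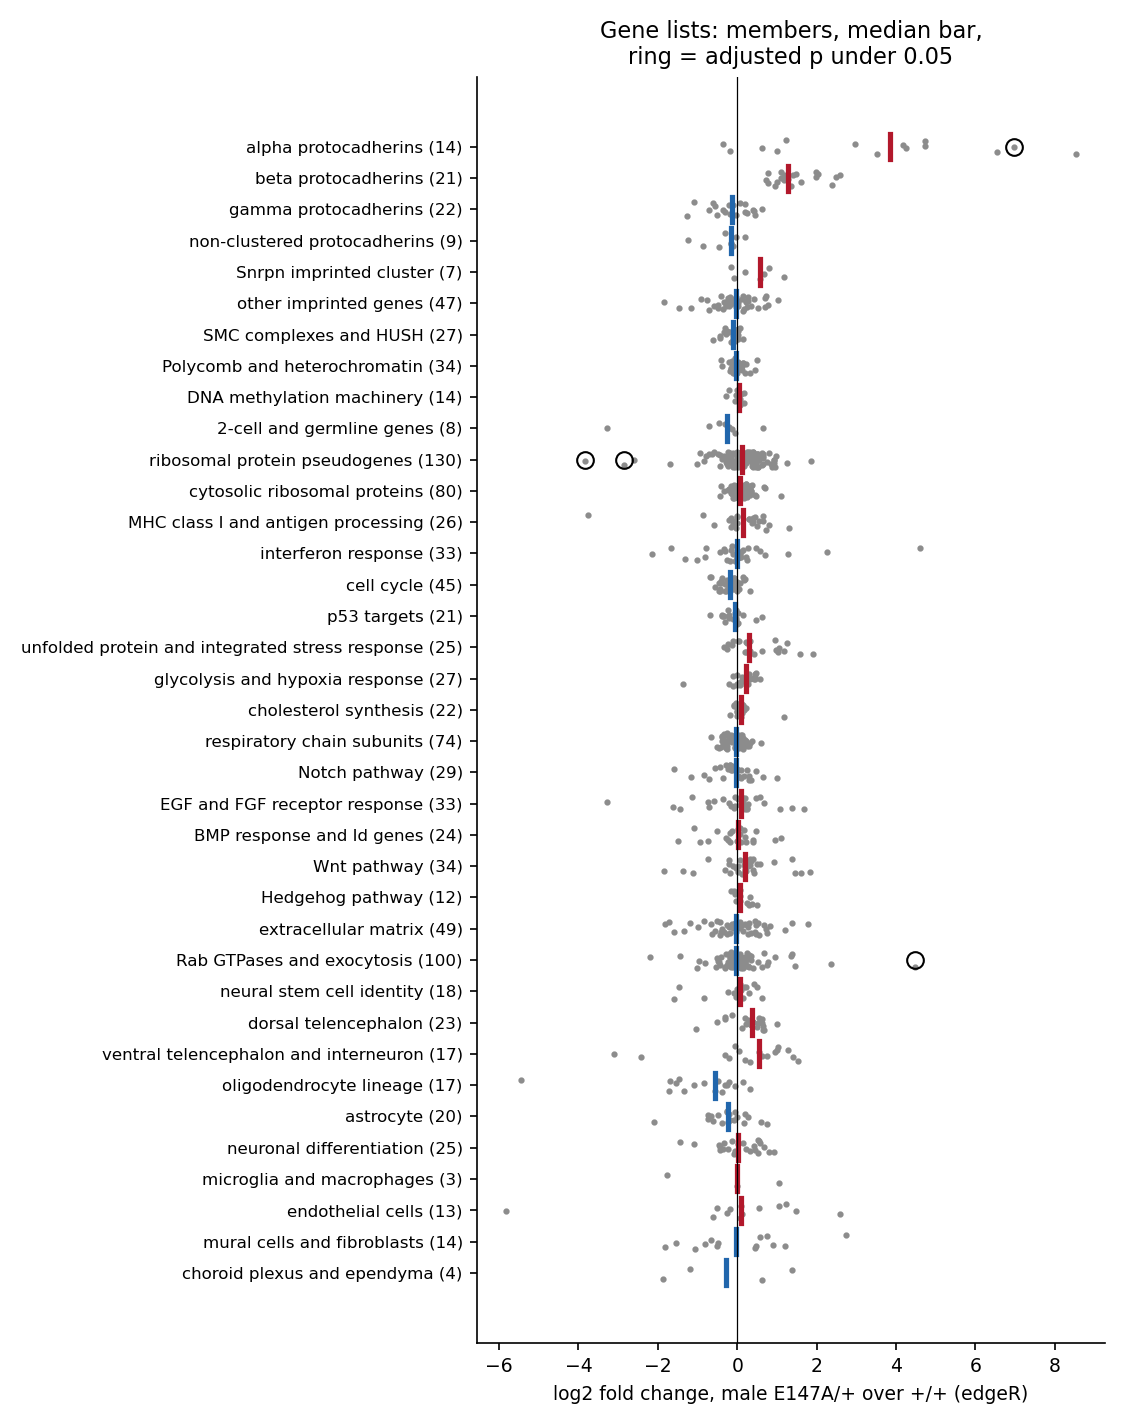
Log2 fold change, male E147A/+ over +/+, of every tested member (points) of each gene list, with the list median as a bar (red above 0, blue below) and the number tested in brackets. Rings mark the 4 genes past an adjusted p of 0.05, and the alpha (median 3.85) and beta (1.28) protocadherins lie farthest to the right.

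Markers of cell types were compared to show which cells the cultures could hold. In bulk RNA fewer cells of a type and less RNA per cell cannot be told apart. Neural stem cell identity genes had 11 of 18 higher and a median of 0.06, with Msi1 (0.49) and Vim (0.61) higher and Fabp7, Hes5 and Ednrb (-1.47) lower at an unadjusted p under 0.05. Ednrb, an endothelin receptor, was at 214 CPM in the litter-3 culture of +/+ against 42.7 and 55.0 CPM in the other +/+ cultures, and its log2 fold change was -0.38 without that culture. That of Vim was 0.40 without the litter-3 culture of E147A/+. Oligodendrocyte lineage genes were lower in 15 of 17 tested members, with a median log2 fold change of -0.57 that lay between -0.73 and -0.51 without each male library in turn. It was -0.21 within litter 1 and -0.77 within litter 3, and -0.31 with limma-voom. Gpr17, a receptor of oligodendrocyte precursors on chromosome 18, was at 0.0536, 0.134 and 0 CPM in E147A/+ and 4.62 CPM in litter 4, 1.74 CPM in litter 1 and 2.19 CPM in litter 3 in +/+. Every +/+ culture was above every E147A/+ culture (log2 fold change -5.44, SE 0.82, edgeR adjusted p 0.133).

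Pdgfra, the growth factor receptor of the same precursors, was at 22.6, 24 and 10.7 CPM against 85.0, 47.2 and 33.4 CPM, and Cnp, a myelin enzyme, at 83.7, 59.0 and 64.0 CPM against 171, 87.5 and 109 CPM. Neither overlapped between genotypes, and the log2 fold change of Cnp was -0.83 over all libraries and -0.51 without the litter-4 culture of +/+. Olig2, which defines the lineage, was at 642, 603 and 484 CPM against 579, 556 and 650 CPM, with overlapping groups. Summed over the list the level was 1604 to 2363 CPM in E147A/+ and 2252 to 2546 CPM in +/+.

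Astrocyte markers had 5 of 20 higher and a median of -0.22, with Glul (-0.48) and Aqp4 (-2.10) lower and Cd44 (0.74) higher at an unadjusted p under 0.05. The median changed sign without the litter-4 culture of +/+ (0.09) and was -0.10 within litter 1 and 0.41 within litter 3. Aqp4 was at 8.42 CPM in that culture against 1.46 and 0.742 CPM in the other +/+ cultures, and its log2 fold change without it was -0.40. Dorsal telencephalon markers had 18 of 23 higher (0.37) and ventral telencephalon and interneuron markers 12 of 17 (0.54), with Gsx1 (-2.42) the only low p of both lists. Gsx1 had 58 of its 74 counts over +/+ in the litter-3 culture, and its log2 fold change was -1.02 without that culture. In these 2 lists the medians had opposite signs in the litters, at -0.13 and -0.33 within litter 1 and 1.16 and 2.29 within litter 3, and they were -0.03 and 0.18 without the litter-3 culture of +/+. Neuronal differentiation markers had 13 of 25 higher (0.01) and no low p.

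Few markers of microglia, blood cells and choroid plexus had enough counts to test, and apart from that of blood cells the sign of each median below changed when 1 male library was left out. Of 15 microglial and macrophage markers 3 could be tested (2 higher, median 0.0045), of 10 blood cell markers 2 (1 higher, median 0.34), and of 13 markers of choroid plexus and ependyma 4 (2 higher, median -0.29), with Rsph1 (-1.86) at an unadjusted p under 0.05. Rsph1 lies on chromosome 17, under the limit of strain given above. Endothelial markers had 8 of 13 higher (0.09) at summed levels of 23.1 to 36.6 CPM in E147A/+ and 17.3 to 25.2 CPM in +/+. Among them Eng (1.04) was higher and Cldn5 had 1 count in E147A/+ against 66 in +/+, none of those in litter 4. Mural cell and fibroblast markers had 7 of 14 higher (-0.03), with Pdgfra the only low p. Whether other cell types contribute to any difference above was not tested.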

How the data were processed

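Per the labels' protocols, stranded poly(A) libraries were sequenced as 80 bp paired-end reads. Trim Galore 0.4.4, HISAT2 2.0.5, featureCounts, R 3.5.1 and edgeR 3.24.0, with GRCm38 (mm10), are named in the submitters' processing notes. The strand setting of the counting is not given in the sources used here. The authors deposited raw counts per gene, and their coordinates equal those of GENCODE M21 for 51779 of 52403 shared IDs.

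Libraries were grouped by their titles. After filterByExpr and TMM scaling, genes were tested by quasi-likelihood F test (edgeR 4.0.16 under R 4.3.3), with 1 mean per sex and genotype over all 10 libraries (6 residual degrees of freedom). The contrast was male E147A/+ minus male +/+. p-values were adjusted by Benjamini-Hochberg over all 17110 genes tested, with a threshold of 0.05, and autosomal genes are printed. Standard errors were derived from the fold change and F. Within-litter differences are of log2 CPM with a prior count of 2. The floor is 3 counts, summed over a group, and 95% intervals of count ratios are exact. In samples this small, 3 against 3, an exact permutation test of single values was not used, since it cannot reach the threshold. Depth per library limits genes under about 1 CPM.

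Named genes are Smchd1, those past the threshold, the 12 higher and 12 lower with the lowest p among genes whose groups do not overlap and whose sign is the same in litters 1 and 3, up to 4 list members with the lowest p, and defining members. For those 12 higher and 12 lower genes the lack of overlap follows from this choice. Members and lists were chosen with earlier results of these data known. Lists are described by counts and medians, without a set test. Alternatives were RLE scaling, DESeq2 1.42.0, limma 3.58.1 (voom with quality weights), no filter, at least 10 counts in every male library, a mean log2 CPM of at least 3, the 6 male libraries alone, litter as a covariate, a replicate block and leaving out each male library. Replicate numbers come from the titles. Numbers 2 and 3 share a litter across genotypes and number 1 does not. The tests were also run on simulated counts, and the outcome is not given here.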

Additional observations from a re-analysis of the deposited data

Results flagged for a closer look

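Dll3, a Notch ligand on chromosome 7, differed in opposite directions in the 2 litters that hold both genotypes. It was at 40.8 and 41.2 CPM in the E147A/+ cultures of litter 1 against 103 CPM in +/+ of litter 1, a log2 difference of -1.32. In litter 3 it was at 35.9 CPM in E147A/+ and 27.7 CPM in +/+, a log2 difference of 0.373. The litter-4 culture of +/+ was at 133 CPM. With 1 culture of each genotype in litter 3, the difference between the litters was not tested.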

How the results depend on the processing

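The 4 calls became 4 with RLE scaling, 45 with DESeq2 (4 shared), 8 with limma-voom (3 shared), 13 without a filter (4 shared), and 3 with 10 counts in every male library or with mean log2 CPM at 3 or more. There was 1 call with the 6 male libraries alone (Rps18-ps6, with 367 genes at an unadjusted p under 0.05), 2 with litter as a covariate over 10 libraries (Gm42047 and Rps18-ps6) and 1 over the 6 (Gm42047). Leaving out each male library in turn gave 1 to 4 calls, with 1 without replicate 3 of E147A/+ and 2 without replicate 1. Of the 45 DESeq2 calls, 15 were clustered protocadherins and 9 lay on chromosome 17. In the fit with the replicate block, 2 genes were called (Gm42047 and Rps18-ps6, 1 shared). The correlations of deviations of same-numbered libraries were -0.238, 0.42 and 0.0338, and 1 of 3 libraries correlated best with its own number, so the numbers were not taken as pairs, although numbers 2 and 3 share a litter across genotypes and number 1 does not.

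The log2 fold change of Fos was 0.39 with litter as a covariate, over 10 or 6 libraries, and from -3.89 to 0.19 without each male library in turn. That of P2ry12, a microglial marker, ranged from -2.32 to 0.70 without each male library in turn, the last without the litter-3 culture of +/+. The count at an unadjusted p under 0.05 was 296 under the filter on mean log2 CPM, 984 with litter as a covariate over 10 libraries, and 454 to 1090 without each male library in turn. The alpha protocadherin median was 0.13 with 10 counts in every male library, where 2 members remained. The cell cycle median was -0.47 with litter as a covariate and ranged from -0.43 to 0.03 without each library. Of the 38 list medians, 14 kept their sign without each male library in turn and 24 did not. Of 73 named genes at an unadjusted p under 0.05, 16 shrank by more than 1.5 times on the log2 scale without 1 library, 8 of them without the litter-3 culture of +/+, 5 without the litter-4 culture of +/+ and 3 without the litter-3 culture of E147A/+. Low counts limit the alpha protocadherins. The causes were not tested.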
